A study of Mus musculus with 11 samples.

Results

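The 9 sugar transporter genes described here are Slc2a1, Slc2a2, Slc2a3, Slc2a5, Slc2a8, Slc2a12, Slc2a13, Slc5a1 and Slc5a9. They were taken by gene name from a table of read counts for 43346 genes in mouse colon, and 8 of the 9 had enough counts to be tested. Colonic RNA was compared between 5 germ-free mice, which carry no microbes, and 6 humanized mice, which had been germ-free and then received human gut microbiota. All 11 mice were male Swiss Webster animals studied at 8 to 10 weeks of age, housed singly in film isolators on an autoclaved diet. Colonization of the humanized group was by oral gavage of human stool mixed with buffer (300 µL of the mixture) at an age of 4 to 5 weeks, and colon was taken 4 to 5 weeks later. All of their microbiota came from 1 healthy human donor, so the group describes the response to 1 community. Each library came from a different mouse.

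Sugars cross cell membranes through carriers of 2 kinds. The facilitative carriers of the Slc2a family, known as GLUT proteins, let a sugar run down its own gradient, whereas the sodium-coupled carriers of the Slc5a family use the sodium gradient kept up by the sodium pump to draw sugar into the cell against its gradient. In the gut the textbook case is the small intestine, where the sodium-coupled carrier of glucose and galactose and the fructose carrier sit on the luminal face of absorptive cells. The colon meets little dietary sugar in comparison and is better known for absorbing short-chain fatty acids, water and salt.

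The table held 39125290 to 64148538 counts per mouse, with a median of 56718640 in germ-free and 43784996.5 in humanized mice. Over the 19863 genes tested, 1999 (10.1%) were lower and 1827 (9.2%) were higher in humanized mice at a false discovery rate (FDR) below 0.01. Differences are given as the log2 fold change (LFC) of humanized over germ-free mice, with a median of 0.01 over all genes tested. Marker lists of the other cell types of the tissue differed in direction. Of the smooth muscle markers 9 of 9 were lower in humanized mice, as were 7 of 8 fibroblast markers and 8 of 9 enteric neuron and glia markers. The smooth muscle count was 5 of 9 without germ-free mouse 4. With the quasi-likelihood test of edgeR the 3 counts were 5, 5 and 7. The 7 endothelial markers had LFCs below 0 with a median of -0.91, and 4 were lower with no overlap. None of them passed, although 4 did so without humanized mouse 3 and 5 without humanized mouse 5. None of 5 red cell markers passed in either direction, and 2 of 7 leukocyte markers were higher and none lower. Of 11 epithelial markers 3 were higher and none lower, and 5 were higher without humanized mouse 3. Of 7 enteroendocrine markers 3 were higher and 2 lower, with LFCs from -3.17 to 0.90. With scaling to the epithelial markers, 1 of these 7 was higher and 2 were lower. Summed epithelial markers ran from 4385 to 5833 RPKM (reads scaled to gene length and library size) in germ-free mice and from 4915 to 6919 RPKM in humanized mice. Summed smooth muscle markers ran from 280.1 to 857 RPKM and from 38.1 to 298 RPKM, with humanized mouse 5 the lowest. Genes of the small intestine were present in both groups, and 1 of 7 tested, the disaccharidase gene Sis, was lower and 0 were higher. Without humanized mouse 6, 3 of 7 were lower, and the median LFC moved from 0.27 to -0.94. Their summed level ran from 442.5 to 723 RPKM in germ-free mice and from 504 to 1111 RPKM in humanized mice, with mouse 6 the highest, and most of this sum was Fabp2, at means of 498 and 600 RPKM. Lactase (Lct) and Gata4 stayed below the filter. Of 3 tested Hox genes that mark position in the distal colon, Hoxd10 and Hoxd11 were lower with no overlap, at LFCs of -1.25 and -1.52, and this count was 1 of 3 without germ-free mouse 4 and 0 of 3 with the quasi-likelihood test. Summed levels of these position genes ran from 3.99 to 7.12 RPKM in germ-free and from 0.542 to 3.02 RPKM in humanized mice. The part of the sampled position along the colon in the results that follow was not tested.

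The main findings can be stated briefly. Slc2a5, the fructose carrier, was the only one of the 8 tested members that passed the test, with a level 48.0% lower in humanized than in germ-free mice. This call was lost in 8 of 11 fits that left out 1 mouse and with the quasi-likelihood test (FDR 0.0234). Slc2a1 and Slc5a1, the carriers of glucose, made up most of the summed RPKM of the 9 genes in both groups and neither passed the test. Within each mouse, however, Slc5a1 and Slc2a5 stood lower relative to Slc2a1 in every humanized mouse than in any germ-free mouse. These were 2 of 28 pairs of members, computed after the levels had been seen. Of all genes tested, 10.3% were also lower relative to Slc2a1 with no overlap. Of the 8 members tested, 1 was lower, against 10.1% of all genes, and 0 were higher, against 9.2% of all genes. The groups overlapped for every one of the 8. Over all genes tested, 9.73% were lower and 8.67% were higher in humanized mice with no overlap. The median LFC of the 8 was -0.15, with a range from -0.94 to 0.30, and 5 of the 8 were below 0. In bulk tissue, fewer cells of a type and less RNA per cell cannot be told apart, and this holds for each value that follows.

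**Figure D1:**
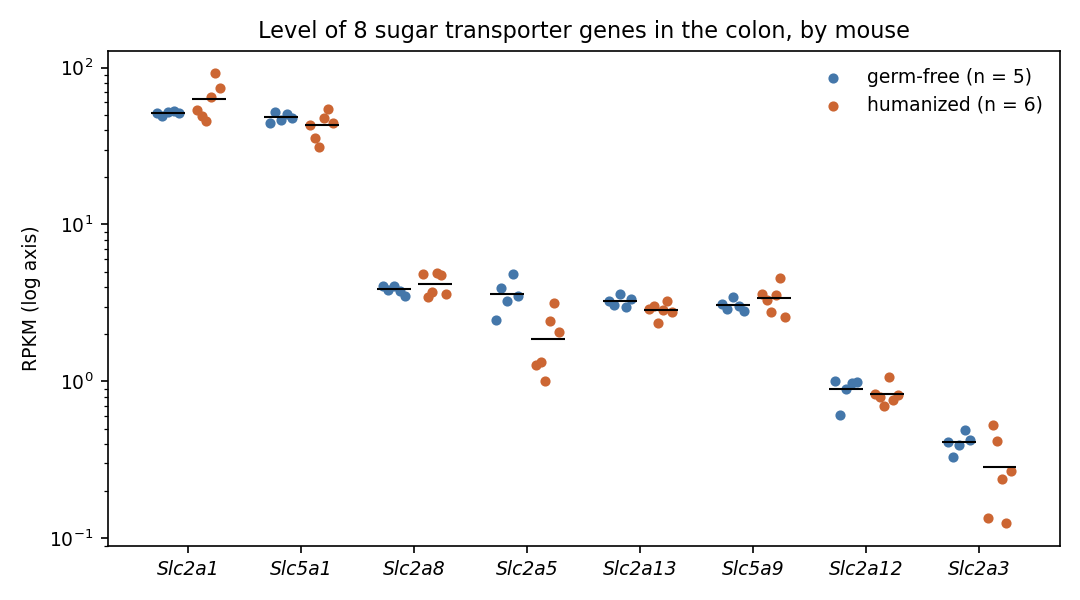
Level of the 8 tested sugar transporter genes in the colon, as RPKM on a log axis, with 1 point per mouse (5 germ-free, 6 humanized) and a bar at each group mean. Slc2a1 and Slc5a1 sit above 30 RPKM in all mice and the other genes below 5, and the 2 groups overlap for each gene.

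The start regions of Slc2a5, Slc2a1 and Slc5a1 are shown first, because the one call and the ratios within a mouse given further on concern these 3 members. The RefSeq promoter table of build GRCm38.p6 held an entry for 7 of the 9 members. Each entry covers 250 bases before and 50 bases after the gene start, and only the bases before the first annotated transcript base are printed, 5′ to 3′ on the plus strand. Capitals mark the GC box GGGCGG, which is bound by Sp1, and the E-box CACGTG, which is bound by basic helix-loop-helix proteins, each searched on both strands.
Slc2a5: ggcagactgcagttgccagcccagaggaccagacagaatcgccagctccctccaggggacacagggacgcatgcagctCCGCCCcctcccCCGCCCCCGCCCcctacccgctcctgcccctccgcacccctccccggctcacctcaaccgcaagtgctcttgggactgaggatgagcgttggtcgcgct
Slc2a1: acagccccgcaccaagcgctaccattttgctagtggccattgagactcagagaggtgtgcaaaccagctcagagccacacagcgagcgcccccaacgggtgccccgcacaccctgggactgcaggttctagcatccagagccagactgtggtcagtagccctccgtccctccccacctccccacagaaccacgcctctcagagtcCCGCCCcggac
Slc5a1: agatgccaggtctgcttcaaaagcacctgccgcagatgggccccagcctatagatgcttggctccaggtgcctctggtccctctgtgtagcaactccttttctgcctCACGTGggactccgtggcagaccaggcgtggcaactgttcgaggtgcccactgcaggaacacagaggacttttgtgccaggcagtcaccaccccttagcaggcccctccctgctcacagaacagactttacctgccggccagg
The Slc2a5 sequence lies at chr4:150119094-150119282, the Slc2a1 sequence at chr4:119108495-119108710 and the Slc5a1 sequence at chr5:33103969-33104218. In the whole 300-base windows, Slc2a5 held 3 GC boxes on the minus strand, of which 2 abut each other. Slc2a1 held 2 GC boxes on the minus strand, of which 1 falls in the printed stretch. Slc5a1 held no GC box and 1 E-box, starting 143 bases before the gene start. The E-box also contains the letters ACGTG, the core bound by hypoxia-inducible factors, which were found on their own in the Slc2a1 window, starting 36 bases before the gene start. Over the 32851 promoters of the same length, 35.7% held the GC box, 7.15% the E-box and 19.6% the letters ACGTG. Of the other members with an entry, Slc2a13 held 3 GC boxes, and Slc2a2, Slc2a8 and Slc2a12 held neither motif. These matches describe the letters in each window only.

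Slc2a1 (ENSMUSG00000028645, chr4:119108711-119137330) encodes GLUT1, the widely expressed carrier for basal glucose uptake. Its level in germ-free mice 1 to 5 was 51.6, 49.1, 51.8, 53.2 and 51.4 RPKM. Humanized mice ran from 45.3 to 91.9 RPKM, with a median of 59.5. Germ-free mice were thus tightly grouped, and 2 humanized mice lay below all of them while 4 lay above all of them. Humanized mouse 2 lay below only narrowly, at 49.09 against 49.13 RPKM, and mouse 1 lay above at 53.98 against 53.19 RPKM. The mean was 51.4 ± 1.47 RPKM (SD, n = 5) in germ-free and 63.3 ± 17.6 RPKM (SD, n = 6) in humanized mice. The coefficient of variation was 2.85% and 27.9%. The LFC was 0.30 (SE 0.157, FDR 0.166 by the edgeR exact test), with a 95% interval from -0.01 to 0.61, and the exact permutation test over mice gave a two-sided p of 0.186. Humanized mouse 5 was the highest at 91.9 RPKM, and without it the LFC was 0.16, whereas without mouse 3, the lowest, it was 0.38 (FDR 0.0399 by the edgeR exact test). The LFC was 0.10 with library totals alone and 0.02 with scaling to the epithelial markers. An antisense gene, Gm12868, shares 105 exonic bases with Slc2a1, and whether the counting used strand is not given in the sources used here, so reads of that stretch cannot be assigned to one or the other.

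Slc5a1 (ENSMUSG00000011034, chr5:33104219-33162872) encodes SGLT1, which carries glucose and galactose into the cell together with sodium. Germ-free mice 1 to 5 stood at 44.6, 52.0, 46.5, 50.3 and 47.8 RPKM. In humanized mice the lowest value was 31.2, the median 43.7 and the highest 54.1 RPKM. Here 4 humanized mice lay below all germ-free mice, although mouse 6 did so only narrowly, at 44.57 against 44.59 RPKM, and mouse 5 lay above all of them. Means were 48.2 ± 2.96 RPKM (SD, n = 5) and 42.7 ± 8.27 RPKM (SD, n = 6). The LFC was -0.17 (SE 0.12, FDR 0.329 by the edgeR exact test), with a 95% interval from -0.41 to 0.06. The exact permutation test over mice gave p = 0.188. Leaving out 1 mouse at a time moved the LFC between -0.26, without humanized mouse 5, and -0.10, without humanized mouse 3. The call depended on the scaling, because the LFC was -0.37 with library totals alone (FDR 0.00554 by the edgeR exact test) and -0.44 with scaling to the epithelial markers (FDR 3.75e-04).

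Slc2a5 (ENSMUSG00000028976, chr4:150119283-150144169) encodes GLUT5, the carrier specific for fructose. Its RNA in germ-free mice 1 to 5 was at 2.47, 3.94, 3.27, 4.85 and 3.52 RPKM. Values in humanized mice ran from 1.01 RPKM in mouse 3 to 3.14 RPKM in mouse 5, with a median of 1.69. Humanized mice 1, 2, 3, 4 and 6 lay below the lowest germ-free mouse, and mouse 5 lay within the germ-free range. The mean fell from 3.61 ± 0.876 RPKM (SD, n = 5) to 1.88 ± 0.820 RPKM (SD, n = 6), an LFC of -0.94 (SE 0.276, FDR 0.00643 by the edgeR exact test) with a 95% interval from -1.49 to -0.40. The exact permutation test gave a two-sided p of 0.0130. The call rested on the full set of mice: leaving out 1 mouse at a time moved the LFC between -1.15 and -0.82 and the FDR between 7.45e-05 and 0.0373, and FDR stayed below 0.01 only without germ-free mouse 1, humanized mouse 4 or humanized mouse 5. With the quasi-likelihood test of edgeR the LFC was -0.94 at FDR 0.0234.

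**Figure D2:**
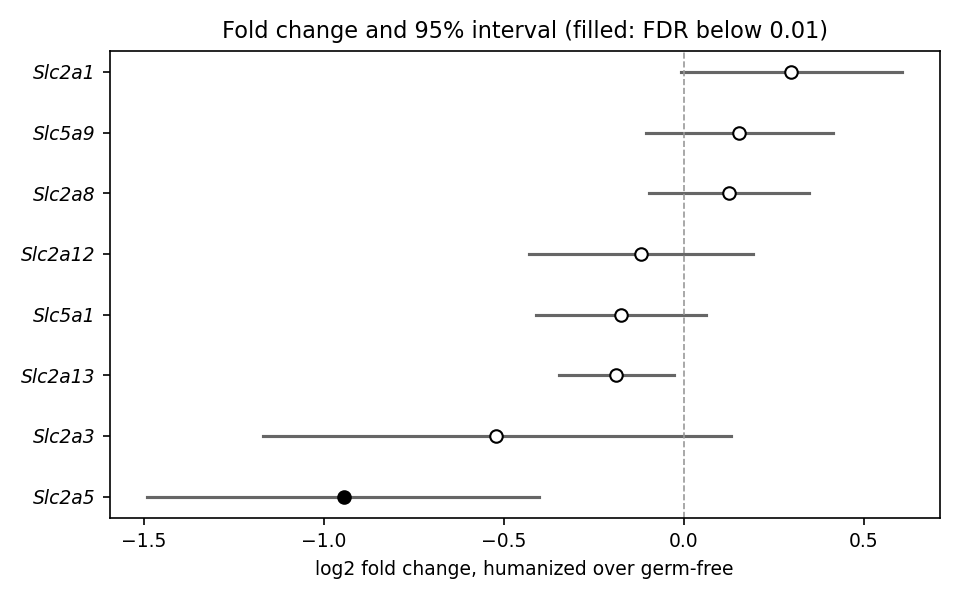
LFC of humanized over germ-free mice for the 8 tested sugar transporter genes, with points at the LFC and bars at the 95% interval. Slc2a5, the filled point at -0.94, is the only gene past FDR 0.01, and the intervals of Slc2a5 and Slc2a13 lie wholly below 0.

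The 3 other facilitative carriers of hexoses that were tested did not pass. Slc2a3 (ENSMUSG00000003153, chr6:122727809-122801640) encodes GLUT3, a high-affinity glucose carrier best known from neurons and also used by leukocytes. Germ-free mice 1 to 5 were at 0.409, 0.330, 0.394, 0.491 and 0.423 RPKM, and humanized mice ran from 0.125 to 0.528 RPKM with a median of 0.254. Humanized mice 1, 4, 5 and 6 lay below all germ-free mice, mouse 2 lay above all of them and mouse 3 lay among them. The LFC was -0.52 (SE 0.332, FDR 0.28 by the edgeR exact test) with a 95% interval from -1.17 to 0.13, which holds both 0 and values below -1. Mice 2 and 3 also had the highest summed leukocyte markers of the humanized group, at 172 and 198 RPKM against 33.1 RPKM in mouse 5, which had the lowest Slc2a3. Of the 7 leukocyte markers tested, 2 (Cd3e and Cd79a) were higher and none lower, although the call of Cd79a was lost in 8 of 11 fits that left out 1 mouse. The LFCs of the 7 ran from -0.74 to 1.62, and 2 of them, Cd68 and Csf1r, were below 0. At an FDR threshold of 0.05, 1 of the 7 was lower. None of the 7 was at 0 in either group mean, and their summed level ran from 79.7 to 103 RPKM in germ-free and from 33.1 to 198 RPKM in humanized mice. Their part in the level of Slc2a3 was not tested.

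Slc2a8 (ENSMUSG00000026791, chr2:32972990-32982083) encodes GLUT8, which is held mostly in membranes inside the cell. It ran from 3.51 to 4.07 RPKM in germ-free and from 3.44 to 4.94 RPKM in humanized mice, with an LFC of 0.13 (SE 0.113, FDR 0.55 by the edgeR exact test). Slc2a12 (ENSMUSG00000037490, chr10:22645011-22704285) encodes GLUT12, another carrier of glucose. It ran from 0.609 to 1.01 RPKM and from 0.697 to 1.06 RPKM, with an LFC of -0.12 (SE 0.158, FDR 0.71 by the edgeR exact test). For both genes the groups overlapped, and the LFC of Slc2a8 turned to -0.06 with library totals alone and to -0.13 with epithelial scaling. In Slc2a12, 407 exonic bases overlap the gene Tbpl1 on the other strand.

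Slc2a13 (ENSMUSG00000036298, chr15:91267696-91573261) is the proton-coupled carrier of myo-inositol, a cyclic polyol rather than a hexose. Its level was 3.26, 3.06, 3.597, 2.99 and 3.33 RPKM in germ-free mice 1 to 5, and ran from 2.34 to 3.23 RPKM with a median of 2.86 in humanized mice. Only 2 humanized mice, 2 and 5, reached the germ-free range. The LFC was -0.19 (SE 0.0819, FDR 0.153 by the edgeR exact test) with a 95% interval from -0.35 to -0.03. The exact permutation test gave a two-sided p of 0.0368 with no adjustment for the number of genes. With library totals alone the LFC was -0.38 (FDR 3.1e-04 by the edgeR exact test), and with epithelial scaling it was -0.44 (FDR 0.00367).

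Slc5a9 (ENSMUSG00000028544, chr4:111875375-111902918) encodes SGLT4, a sodium-coupled carrier of mannose and fructose. It ran from 2.79 to 3.47 RPKM in germ-free and from 2.57 to 4.54 RPKM in humanized mice, with an LFC of 0.15 (SE 0.132, FDR 0.491 by the edgeR exact test). The groups overlapped, and the LFC turned to -0.04 with library totals alone and to -0.10 with epithelial scaling. Leaving out 1 mouse at a time moved the LFC between 0.05, without humanized mouse 5, and 0.22, without humanized mouse 6.

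Slc2a2 (ENSMUSG00000027690, chr3:28697903-28728363) encodes GLUT2, the low-affinity carrier of liver, pancreatic beta cells and the basal face of small intestinal absorptive cells. Only germ-free mouse 2 held reads of it, with 8 counts, and the other 10 mice held 0. A count of 0 allows up to 3 counts per library, which is 0.0156 to 0.0296 RPKM here, for counting error only. Slc2a2 was therefore not detectable at this depth in 10 of the 11 mice, and no fold change is given.

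The order of the levels per length was nearly shared by the 2 groups. In germ-free mice Slc2a1 and Slc5a1 overlapped at the top, and in humanized mice they overlapped too. A wide gap separated them in both groups from Slc2a8, Slc2a5, Slc2a13 and Slc5a9, which lay between 3.05 and 3.85 RPKM on average in germ-free mice and overlapped from each neighbour to the next. In humanized mice the order among these was Slc2a8, Slc5a9, Slc2a13 and Slc2a5, with means of 4.20, 3.39, 2.85 and 1.88 RPKM, so Slc2a5 moved from the second to the last place among them. Neighbours again overlapped, and Slc2a5 also overlapped Slc2a12 below it. Slc2a12, Slc2a3 and Slc2a2 followed in this order in both groups. Slc2a1 made up on average 44.8% of the summed RPKM of the 9 genes in germ-free and 52.5% in humanized mice. The share of Slc5a1 was 42.0% and 36.0%, and that of Slc2a5 was 3.13% and 1.51%. The RPKM of Slc2a1 rests on the deposited length of 2853 bases, and its exons cover 3506 bases in the GENCODE M21 annotation. Its place beside Slc5a1 and these shares depend on the length used.

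Ratios within a mouse do not depend on how libraries are scaled to each other. They were computed for all 28 pairs of the 8 tested members after the levels had been seen, and are given as a description with no test. The ratio of Slc5a1 to Slc2a1 in RPKM was 0.864, 1.06, 0.897, 0.945 and 0.929 in germ-free mice 1 to 5. It ran from 0.589 to 0.793 in humanized mice, with a median of 0.709. The groups did not overlap, and the means were 0.939 ± 0.0744 (SD, n = 5) and 0.689 ± 0.0806 (SD, n = 6), a difference of -0.45 in the mean log2 ratio. Humanized mouse 5, which had the highest level of both genes, had the lowest ratio.

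The ratio of Slc2a5 to Slc2a1 was 0.0479, 0.0803, 0.0631, 0.0912 and 0.0685 in germ-free mice 1 to 5, and ran from 0.0223 to 0.0374 in humanized mice with a median of 0.0273. Again no humanized mouse reached the lowest germ-free mouse. Means were 0.0702 ± 0.0165 (SD, n = 5) and 0.0287 ± 0.00594 (SD, n = 6), a difference of -1.28 in the mean log2 ratio. Of the 7 members set against Slc2a1, these 2 (28.6%) were lower with no overlap, and 10.3% of all genes tested were lower relative to Slc2a1 with no overlap. Slc2a1 was set as the reference after the data had been seen, and both pairs without overlap hold it. That choice favours a high share among the members, so 28.6% and 10.3% cannot be compared as a test. Of the 28 pairs, these 2 were without overlap, and the count was 5 without germ-free mouse 1 and 4 without humanized mouse 2, 5 or 6. Slc2a5 relative to Slc5a1 ran from 0.0554 to 0.0965 in germ-free and from 0.0299 to 0.0581 in humanized mice, where mouse 5 reached into the germ-free range.

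**Figure D3:**
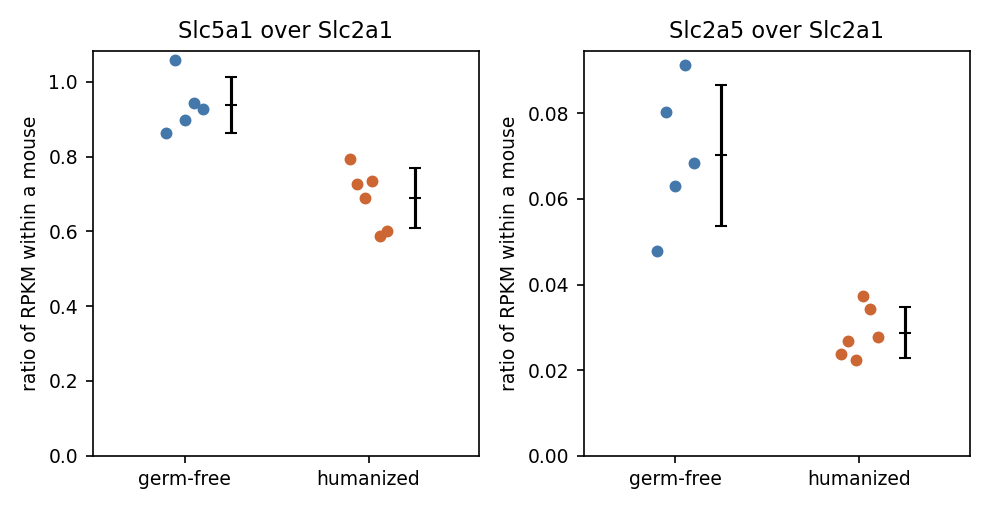
Ratio of RPKM within each mouse for Slc5a1 over Slc2a1 (left) and Slc2a5 over Slc2a1 (right), with 1 point per mouse and the mean with its SD beside the points. All 6 humanized mice lie below all 5 germ-free mice in both panels.

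The members were also followed from mouse to mouse. The log2 level of each gene was set against the mean of its group, and these deviations were wider in humanized mice for each of the 8 genes except Slc2a12. Within the humanized group, 4 of the 8 genes, Slc2a1, Slc2a5, Slc5a1 and Slc2a13, were highest in mouse 5, at 0.58, 0.85, 0.36 and 0.19 above the group mean, and lowest in mouse 3, at -0.44, -0.77, -0.43 and -0.28. Slc5a9 was also highest in mouse 5, at 0.45, and lowest in mouse 6, at -0.38. Slc2a3 ran the other way, at -0.97 in mouse 5 and 0.72 in mouse 3. Humanized mouse 5 also had the lowest summed smooth muscle, fibroblast, endothelial, leukocyte and enteric neuron and glia markers of the 11 mice, and mouse 3 had the lowest summed epithelial markers of the humanized group, at 4915 RPKM. The part of tissue makeup in these deviations was not tested.

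**Figure D4:**
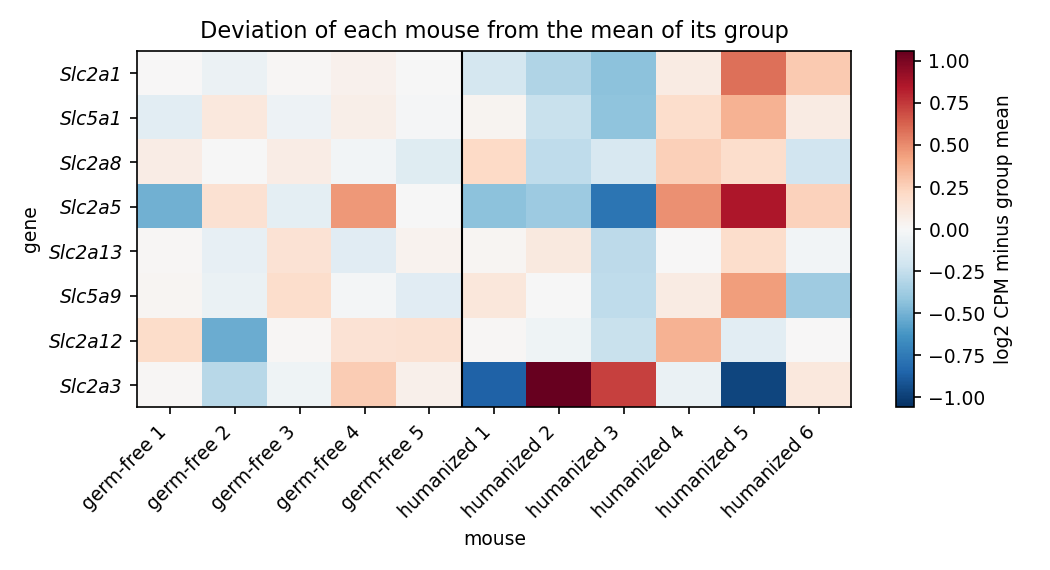
Deviation of each mouse from its group mean in log2 CPM (counts scaled to library size), for the 8 tested sugar transporter genes (rows) and the 11 mice (columns), with red above and blue below the mean. Slc2a1, Slc2a5 and Slc5a1 share red in humanized mice 4, 5 and 6 and blue in mice 2 and 3, where Slc2a3 is red.

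The genes whose deviations from the group means followed most closely those of the 3 most abundant members were sought among 10390 genes with a mean CPM of at least 10. For Slc2a1 they were Ank, Cds1 and the antisense gene Gm12868, with Pearson's r of 0.977, 0.973 and 0.972 over the 11 mice. For Slc5a1 they were Acaa2, Ergic3 and Coq7, with r of 0.976, 0.971 and 0.967. Slc2a8 was followed by Ppp1r37, Arid1b and Get4, with r of 0.984, 0.978 and 0.950. Reads of the stretch shared by Slc2a1 and Gm12868 cannot be told apart, so the likeness of that pair is uncertain. Spearman's rho of these 9 genes ran from 0.927 to 0.982. Without the 2 mice farthest from the median of the member, r ran from 0.907 to 0.980 over 9 mice. These are the best of many genes, so no p is given, and the mice share the scaling of their libraries.

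The wider family of sugar carriers was counted next to the members. Of 20 further genes for sugar and sugar phosphate carriers, 16 were tested, 1 was lower and 0 were higher, with a median LFC of 0.13. Without humanized mouse 5, 2 were higher, the sugar phosphate carrier genes Slc37a2 and Slc37a3, with LFCs of 3.65 and 0.23. The value of Slc37a2 rested on 1 humanized mouse at 31.7 RPKM, with medians of 0.515 RPKM in germ-free and 0.439 RPKM in humanized mice. Leaving out 1 mouse at a time moved its LFC between -0.535 and 3.65, and it passed in 1 of 11 such fits. Slc37a3 also passed without humanized mouse 3 and with DESeq2. The lower one was Slc2a4, the insulin-responsive GLUT4 of muscle and fat, which ran from 2.54 to 6.46 RPKM in germ-free and from 0.194 to 1.69 RPKM in humanized mice with no overlap. Its LFC was -2.05 (SE 0.453, FDR 1.23e-04 by the edgeR exact test), and the median LFC of the 9 smooth muscle markers was -1.79. The part of smooth muscle in the level of Slc2a4 was not tested.

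Kinases trap sugar once it is inside the cell. Of 9 kinases that phosphorylate hexoses, 2 were higher and 0 lower. Hk2, an inducible hexokinase, ran from 5.91 to 8.37 RPKM in germ-free and from 14.2 to 16.0 RPKM in humanized mice, an LFC of 1.142 (SE 0.0824, FDR 5.98e-31 by the edgeR exact test). The LFC of Hk1, the widely expressed hexokinase, was 0.51 (FDR 1.79e-07 by the edgeR exact test). The groups did not overlap for Hk1 or for Hk2. Ketohexokinase (Khk), which phosphorylates fructose after entry, had an LFC of 0.07 (FDR 0.732 by the edgeR exact test). Of 9 genes tested for fructose, galactose and mannose use, 2 were higher and 0 lower. These were Pmm1 and Mpi, which belong to mannose metabolism, with LFCs of 0.74 and 0.45. Under scaling to the epithelial markers Hk1, Hk2, Pmm1 and Mpi kept a positive LFC, and only Hk2 kept an FDR below 0.01. Under that scaling Hkdc1, another hexokinase, and Galt, an enzyme of galactose use, were lower, at LFCs of -0.53 and -0.38.

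Disaccharidases free single sugars at the luminal face of absorptive cells. Of 3 disaccharidases tested, 2 were lower: Mgam, maltase-glucoamylase, and Sis, sucrase-isomaltase. Mgam ran from 52.1 to 59.9 RPKM in germ-free and from 37.4 to 47.4 RPKM in humanized mice, an LFC of -0.44 (SE 0.0733, FDR 4.19e-06 by the edgeR exact test). The groups did not overlap for Mgam. Sis had an LFC of -1.59 (FDR 0.00873 by the edgeR exact test) with overlapping groups, and leaving out 1 mouse at a time ended its call in 9 of 11 fits. Trehalase (Treh) had an LFC of -1.56 at FDR 0.0486 by the edgeR exact test and did not pass. Without humanized mouse 6, which had the highest summed small intestine markers, it passed with an LFC of -2.63 (FDR 7.37e-08), and 3 of 3 disaccharidases were lower.

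Regulators act on the carriers, and the sodium pump keeps up the gradient that drives Slc5a1. Of 15 regulators of sugar carriers tested, 1 was higher and 1 was lower. Sgk1, a kinase that raises the surface level of several carriers and sodium channels, ran from 49.8 to 78.6 RPKM in germ-free and from 24.0 to 31.4 RPKM in humanized mice, an LFC of -1.20 (SE 0.116, FDR 5.47e-20 by the edgeR exact test). Hnf4a, a transcription factor of gut epithelium, had an LFC of 0.42 (FDR 6.08e-04 by the edgeR exact test), a call that was lost with library totals alone and with epithelial scaling. The counts of the list were 0 higher and 3 lower with library totals alone, where Tbc1d1 and Tbc1d4 passed beside Sgk1 at LFCs of -0.29 and -0.32, and 0 higher and 1 lower with epithelial scaling. Txnip, which restrains glucose uptake through GLUT1, had an LFC of 0.16 (FDR 0.491 by the edgeR exact test). Of 5 sodium pump genes tested, 2 were lower and 0 higher. The lower ones were Atp1b2 and Fxyd1, forms known from muscle and nervous tissue, with LFCs of -1.35 and -1.73. Smooth muscle markers were lower too, with 9 of 9 called and 5 of 9 without germ-free mouse 4, and the part of muscle in these 2 genes was not tested. Atp1b1, the main beta subunit of epithelium, had an LFC of 0.04 (FDR 0.79 by the edgeR exact test).

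**Figure D5:**
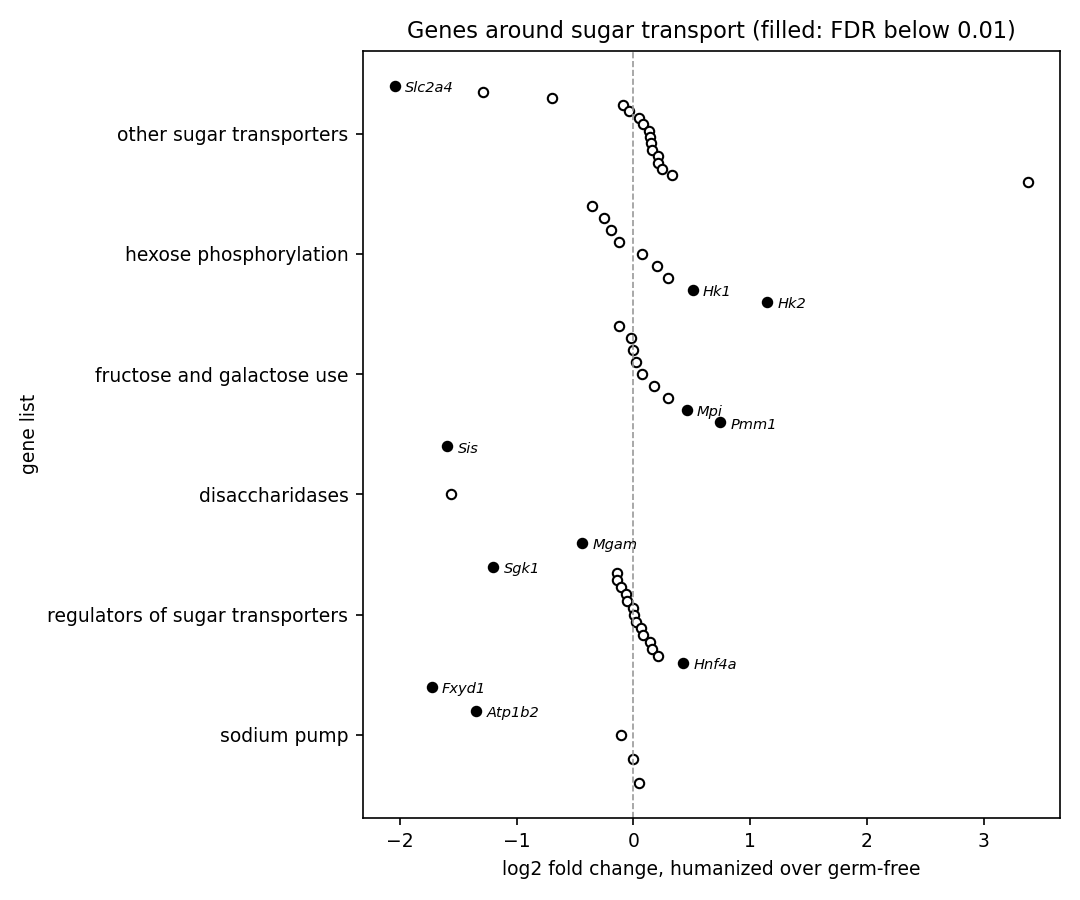
LFC of humanized over germ-free mice for the tested genes of 6 lists around sugar transport, 1 point per gene, filled and named where FDR was below 0.01. The open point at 3.38 is Slc37a2, at FDR 0.0331, whose median was 0.515 RPKM in germ-free and 0.439 RPKM in humanized mice and whose highest mouse reached 31.7 RPKM.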

How the data were processed

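Colonic polyadenylated RNA from 5 germ-free and 6 humanized mice was sequenced as 101 bp paired-end reads. The authors aligned reads to mm10 (TopHat version 2.1.0, with version 2.2.3 of Bowtie), counted them per gene with featureCounts (Subread 1.4.6-p5) and deposited raw counts, without normalization, with gene positions and a length per gene. The deposited length equals the union of exons in GENCODE M21 for 6 of the 9 members. It differs for Slc2a1 (2853 against 3506 bases), Slc2a2 (2759 against 5755) and Slc5a1 (4106 against 4104). The strand setting of the counting is not given in the sources used here.

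Tools were edgeR 4.0.16 and, for alternatives, DESeq2 1.42.0, run in R 4.3.3. Genes were filtered with filterByExpr (minimum count 10, total 15, large n 10, proportion 0.7), scaled by TMM and tested with the exact test of edgeR, with Benjamini-Hochberg FDR below 0.01 as the threshold. Standard errors came from the quasi-likelihood fit, and 95% intervals are 1.96 SE wide on each side. RPKM used TMM library sizes and the deposited length. The exact permutation test was two-sided on log2(RPKM + 0.01), and 0.00216 is the smallest p it allows.

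The scripts were tested on simulated data. Libraries differed in depth, with medians of 56718640 and 43784996.5 counts, and limits of detection cover counting error only, whereas the intervals of LFC include the spread between mice. All 9 members were named. From each companion list, genes at FDR below 0.01 were named, up to 4 by size of LFC, markers were summarized, some genes of these lists are not reported here, and for the 3 members with the highest mean RPKM the 3 genes with the most similar deviations were named. The members and lists were chosen with earlier results of these data known. The genes Slc37a2, Khk, Treh, Txnip, Atp1b1, Fabp2, Lct, Gata4, Hoxd10, Hoxd11, Cd3e and Cd79a were named after their values were seen. So were Tbc1d1, Tbc1d4, Hkdc1, Galt, Slc37a3, Cd68 and Csf1r, and the ratios were added after the data had been seen. Alternatives were another test, scaling, filter or threshold, the replicate number as a block, and leaving out each mouse.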

Additional observations from a re-analysis of the deposited data

Results flagged for a closer look

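Of 16 groups of mice tested for a value far from the rest, 1 stood out: Slc2a12 in humanized mouse 4, at 1.06 RPKM, with the nearest other humanized mouse at 0.8291 RPKM. The gap was 0.637 of the range of the group. Chance flags about 1 in 20 groups.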

How the results depend on the processing

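The number of sugar transporter genes called was 1 under DESeq2, the RLE and upper-quartile scalings, no filter, a minimum of 10 counts in every mouse and an FDR threshold of 0.05. It was 0 with the quasi-likelihood test and 0 when an absolute LFC above 1 was also asked for. With library totals alone, and with scaling to the epithelial markers, it was 3 (Slc2a5, Slc2a13 and Slc5a1, all lower), where the median LFC of all genes moved to -0.18 and -0.23. Among the companion genes named, Cd79a kept its call in only 1 of 4 alternative scalings, and 1 of 7 leukocyte markers was called with no filter. Sis and Cd79a lost their calls with the quasi-likelihood test and DESeq2, and Atp1b2, Hoxd10 and Hoxd11 with the quasi-likelihood test. That test left 5 of 9 smooth muscle, 5 of 8 fibroblast, 7 of 9 enteric neuron and glia and 1 of 7 leukocyte markers called. Over all genes the library totals and the epithelial scaling called 3609 lower and 773 higher, and 2782 lower and 513 higher. Slc2a13 had LFCs of -0.38 and -0.44 under them and Slc5a1 -0.37 and -0.44. Slc2a8 reversed to -0.0631 and -0.13, and Slc5a9 to -0.0383 and -0.103, with FDR from 0.604 to 0.864. The LFC of Slc2a1 was 0.10 and 0.02. Slc2a5 kept its negative direction under all alternatives. Leaving out each mouse gave 0 to 1 genes called, and 2 to 5 pairs of members whose ratios did not overlap, with 5 without germ-free mouse 1 and 4 without humanized mouse 2, 5 or 6. The log2 ratio of Slc5a1 to Slc2a1 then differed by -0.49 to -0.41, and that of Slc2a5 to Slc2a1 by -1.41 to -1.18.

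The replicate numbers did not pair the mice, since same-numbered mice of the 2 groups correlated at -0.133 to 0.091 in their deviations. The replicate number as a block was fitted in the quasi-likelihood test only, so it is set against that test without a block. Of the sugar transporter genes 0 were called in both fits, and over all genes 506 were lower and 506 higher with the block against 1298 and 1401 without it. Lower markers numbered 8 of 9 with the block against 5 without it for smooth muscle, 1 of 8 against 5 for fibroblasts and 7 of 9 in both fits for enteric neurons and glia, and higher ones 0 of 7 against 1 for leukocytes and 0 of 11 against 3 for epithelium. Only the humanized group has a mouse numbered 6, so with the block that mouse does not enter the comparison of the groups. The block also left fewer independent differences between mice to estimate the spread. The median LFC of the smooth muscle markers was -2.25 with the block and -1.78 in the same test without it. By the exact test it was -2.2 without humanized mouse 6. The part of the lost mouse in these changes was not tested. At this depth the least abundant tested member, Slc2a3, rested on 36 to 222 counts per mouse, and Slc2a1 on 5202 to 12460.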
